A study of Bos taurus with 48 samples.

Results

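The HPHE heifers were the Norwegian Red dairy heifers reared on the high-protein, high-energy diet, and their subcutaneous adipose tissue was compared between month 7 of gestation and 12 months of age. Their samples were picked by the labels for protein level (HiPro), energy level (Hi) and time point (Preg or Exp), and the samples of a heifer were paired by the heifer number. This gave 12 of the 48 samples, from 6 of the 24 heifers. The experimental diets started at 3 months of age and lasted until breeding at a target of 400 kg body weight had succeeded, after which heifers of every diet were moved to the same low-energy feed, offered ad libitum. At the first time point the HPHE heifers were 12 months old and on the experimental diet. At the second they were in gestation and on the joint feed. Their age was then 20 to 24 months by a label that all diets share. Heifers 2, 11 and 19 were bred for high milk yield (HMY) and heifers 6, 15 and 23 for low occurrence of clinical mastitis (LCM). The other diets, used only for comparison, were low protein with high energy (LPHE), high protein with low energy (HPLE) and low protein with low energy (LPLE), with 6 heifers each. Gestation, age and feed changed together between the time points and cannot be told apart. The study's methods place the pregnancy of high-energy heifers soon after 12 months, and the labels do not give whether any of the 6 heifers was in early gestation at the first biopsy.

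Bovine adipose tissue is the main site of fatty acid synthesis in cattle, where acetate from the rumen is built into palmitate by acetyl-CoA carboxylase (ACACA) and fatty acid synthase (FASN), then elongated, desaturated and esterified to triacylglycerol. Mitochondria of the adipocyte supply citrate, ATP and carbon from branched-chain amino acids to this synthesis. In late gestation the energy balance of the cow and her endocrine state change, and adipose tissue is known to shift between storing and releasing fat.

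Between 18497583 and 43475748 reads were counted on genes in the HPHE samples of 12 months (median 32166717) and between 27446615 and 61027456 in gestation (median 43994931.5). The totals were higher in gestation in 4 of 6 heifers. The mean log2 difference within heifers was 0.48 (exact sign-flip permutation test of the log2 totals, two-sided p = 0.156, smallest possible p 0.03125). The share of reads on no feature ranged from 22.7% to 25.9% at 12 months and from 20.8% to 26.8% in gestation, with ranges that overlapped. The TMM factor was higher in gestation in 6 of 6 heifers (same permutation test, p = 0.03125, the smallest the design can give). Some libraries stood apart. Heifer 15 at 12 months had a summed level of 3473 CPM (reads of a gene scaled to a common library total) for the smooth muscle markers MYH11, CNN1 and CSPG4, against 105.6 to 358.7 CPM in the other 5 samples of that time. Heifer 6 at 12 months and heifer 23 in gestation had 28.7% and 33.1% of reads that did not align uniquely, against 14.37% to 21.04% in the other 10 samples. Heifer 19 in gestation and heifer 11 at 12 months had the highest sums of 8 skeletal muscle genes, 358 and 158 CPM, against 5.13 to 59.98 CPM in the other samples. Of 10 adipocyte markers only leptin (LEP) and CIDEC had a known identifier, so the tissue label was checked on these 2, and ADIPOQ, PLIN1 and FABP4 were not analysed here. They summed to 2143 to 3376 CPM at 12 months and to 982 to 2156 CPM in gestation. The first dimension of a multidimensional scaling of the 12 samples held 31.9% of the variance and set the gestation samples, at 0.49 to 1.71, apart from 5 of the 6 samples of 12 months, at -1.74 to -0.82. Heifer 15 at 12 months lay between them at 0.01.

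**Figure D1:**
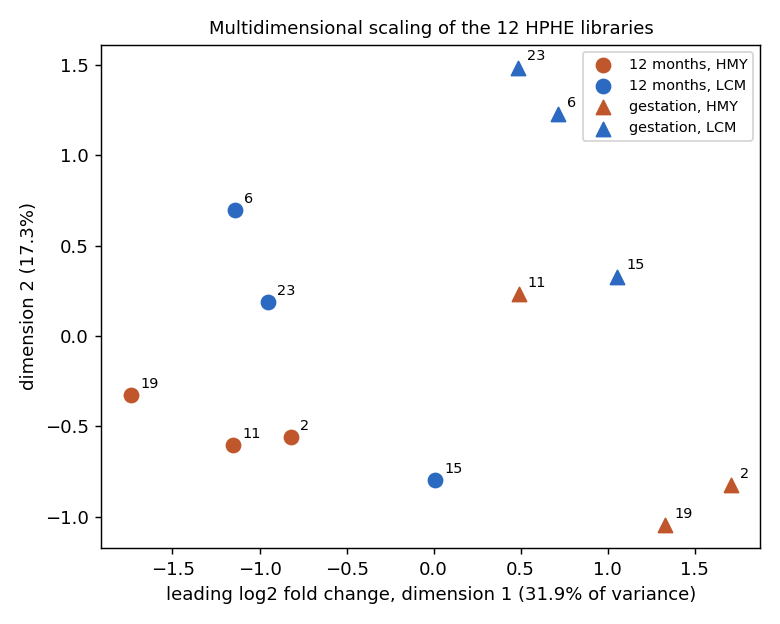
Multidimensional scaling of the 12 HPHE libraries on the 500 most different genes of each pair (log2 scale, share of variance on each axis); circles are samples of 12 months, triangles are gestation samples, colours are the genetic groups and numbers are heifers. The gestation samples lie at 0.49 to 1.71 on dimension 1, the samples of 12 months at -1.74 to 0.01.

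Gestation against 12 months within HPHE heifers was tested for 13718 expressed genes with the quasi-likelihood F test of edgeR, with the heifer as a block and Benjamini-Hochberg adjustment over all genes (FDR). There were 5000 differentially expressed genes (DEG) with an FDR under 0.05, which is 36.4% of the genes tested. Of these, 2571 were higher (18.7%) and 2429 lower (17.7%) in gestation. A gene moved in the same direction in 6 of 6 heifers in 5055 cases, 36.8% of those tested. A change of more than 2-fold was found for 589 higher and 504 lower DEG, and of more than 4-fold for 77 higher and 98 lower DEG. With library size in place of TMM there were 4267 higher and 1615 lower DEG, and the median log2 fold change of all genes moved from 0.04 to 0.17, so log2 fold changes here are relative to the TMM scale. Without heifer 19 or heifer 23 the higher DEG numbered 1642 and 1684. In the HMY heifers alone 3200 genes were DEG, and in the LCM heifers alone 1106. Each genetic group held 3 heifers, and a difference between the groups was not tested.

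Symbols were known for 1007 of the tested genes, because the study listed these genes for differing between diets at 12 months. Of these, 987 came only from its contrast of LPHE and LPLE heifers, which holds no HPHE sample, and 20 from its contrast of HPHE and HPLE, which shares the HPHE samples of 12 months. Of the genes named below, ANGPTL8, SOST, SELE, GPNMB, CCL21, S100B, NNAT, QPRT and KLF11 are among these 20, and their direction is not independent evidence. The gestation effects of LPHE and LPLE heifers share their samples of 12 months with the other choice, so their medians over genes with a symbol are partly set by it. Among the 1007 genes 548 fell (54.4%) and 229 rose (22.7%), with a median log2 fold change of -0.56 against 0.04 over all genes. These shares pool genes that the study listed as higher and as lower on high energy. In a separate fit of the low-protein samples of 12 months, 242 genes were higher and 83 lower in LPHE. In HPHE gestation 92.6% of the 242 fell and 0 rose, and 71.1% of the 83 rose and 0 fell. The counts of each gene group below are read against these shares. For a group made mostly of genes higher in LPHE the nearest share here is 92.6%, and the groups were not split by this direction. The separate fit called fewer genes than the study listed for the same contrast. The share among all genes that the study listed as higher in LPHE was not computed and can be lower than 92.6%.

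Fatty acid synthesis fell together in gestation. Of its 14 measured genes 13 fell, 0 rose, and 12 had no overlap between the 6 values of each time point, against 12.2% of all genes tested. The share without overlap among genes with a symbol, which were chosen for differing between diets, was not computed. The median log2 fold change was -2.52. In the LCM heifers alone 11 genes fell. FASN (ENSBTAG00000015980), which builds palmitate, ranged from 8715 to 14120 CPM (median 12420) at 12 months and from 854 to 1613 CPM (median 1356) in gestation. It fell in 6 of 6 heifers, by 3.23 ± 0.38 on the log2 scale (SE, n = 6 pairs, edgeR FDR 2.72e-06), which is 9.35-fold. Every heifer stood lower in gestation than the lowest heifer of 12 months. SCD (ENSBTAG00000045728), the desaturase that makes oleate, ranged from 7772 to 20890 CPM at 12 months and from 992 to 2542 CPM in gestation, a log2 fold change of -3.21 ± 0.46. Heifer 15 had the lowest SCD level of the 12-month samples, and its gestation level of 2206 CPM lay among the others. ACACA (ENSBTAG00000017567), the rate-limiting enzyme of fatty acid synthesis, went from 1233 to 3214 CPM at 12 months to 198 to 631 CPM in gestation (log2 fold change -2.68 ± 0.37). ELOVL6, which elongates palmitate, fell by 2.93 on the log2 scale, with a range of 762 to 2331 CPM at 12 months and 94.0 to 330 CPM in gestation.

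The genes that supply carbon to this synthesis moved the same way. The mitochondrial citrate carrier SLC25A1 (ENSBTAG00000008528) ranged from 431 to 933 CPM at 12 months and from 77.2 to 112 CPM in gestation (log2 fold change -3.02 ± 0.32, FDR 1.71e-06). ACSS2, which activates acetate in the cytosol, ranged from 1996 to 4593 CPM at 12 months and from 319 to 665 CPM in gestation (log2 fold change -2.80 ± 0.35). Both genes were lower in gestation in 6 of 6 heifers with no overlap. The one gene of the list that did not pass the test was the desaturase FADS2, with a log2 fold change of -0.49 (FDR 0.284). The study listed FADS2 as lower in LPHE than in LPLE heifers, and FASN, SCD and ELOVL6 as higher.

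Triacylglycerol synthesis genes fell as well, 3 of 3 measured. AGPAT2 (ENSBTAG00000025161), which makes phosphatidic acid from lysophosphatidic acid, ranged from 1320 to 2716 CPM at 12 months and from 135 to 341 CPM in gestation (log2 fold change -3.04 ± 0.31, FDR 1.28e-06). DGAT2, which adds the last acyl group of triacylglycerol, fell by 2.11 on the log2 scale, from a median of 7027 to a median of 1508 CPM. CIDEC, a coat protein of the lipid droplet, fell by 0.79 on the log2 scale, from 1844 to 2614 CPM to 875 to 1823 CPM. Of the 5 genes of fatty acid uptake and activation 2 fell and 1 rose. ANGPTL8 (ENSBTAG00000009570), a secreted inhibitor of lipoprotein lipase that is induced by feeding, ranged from 274 to 690 CPM at 12 months and from 1.31 to 22.4 CPM in gestation (log2 fold change -5.96 ± 0.81, FDR 1.12e-05). The lowest ANGPTL8 levels in gestation were those of heifers 6 and 23, with 1.51 and 1.31 CPM, and the fewest reads behind a gestation value were 46. The acyl-CoA synthetase ACSL4 fell by 1.03 on the log2 scale, and the fatty acid transporter SLC27A3 rose by 1.01 (FDR 0.00601). The study listed ACSL4 as higher and SLC27A3 as lower in LPHE than in LPLE heifers. Without heifer 2 ACSL4 had an FDR of 0.0807.

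**Figure D2:**
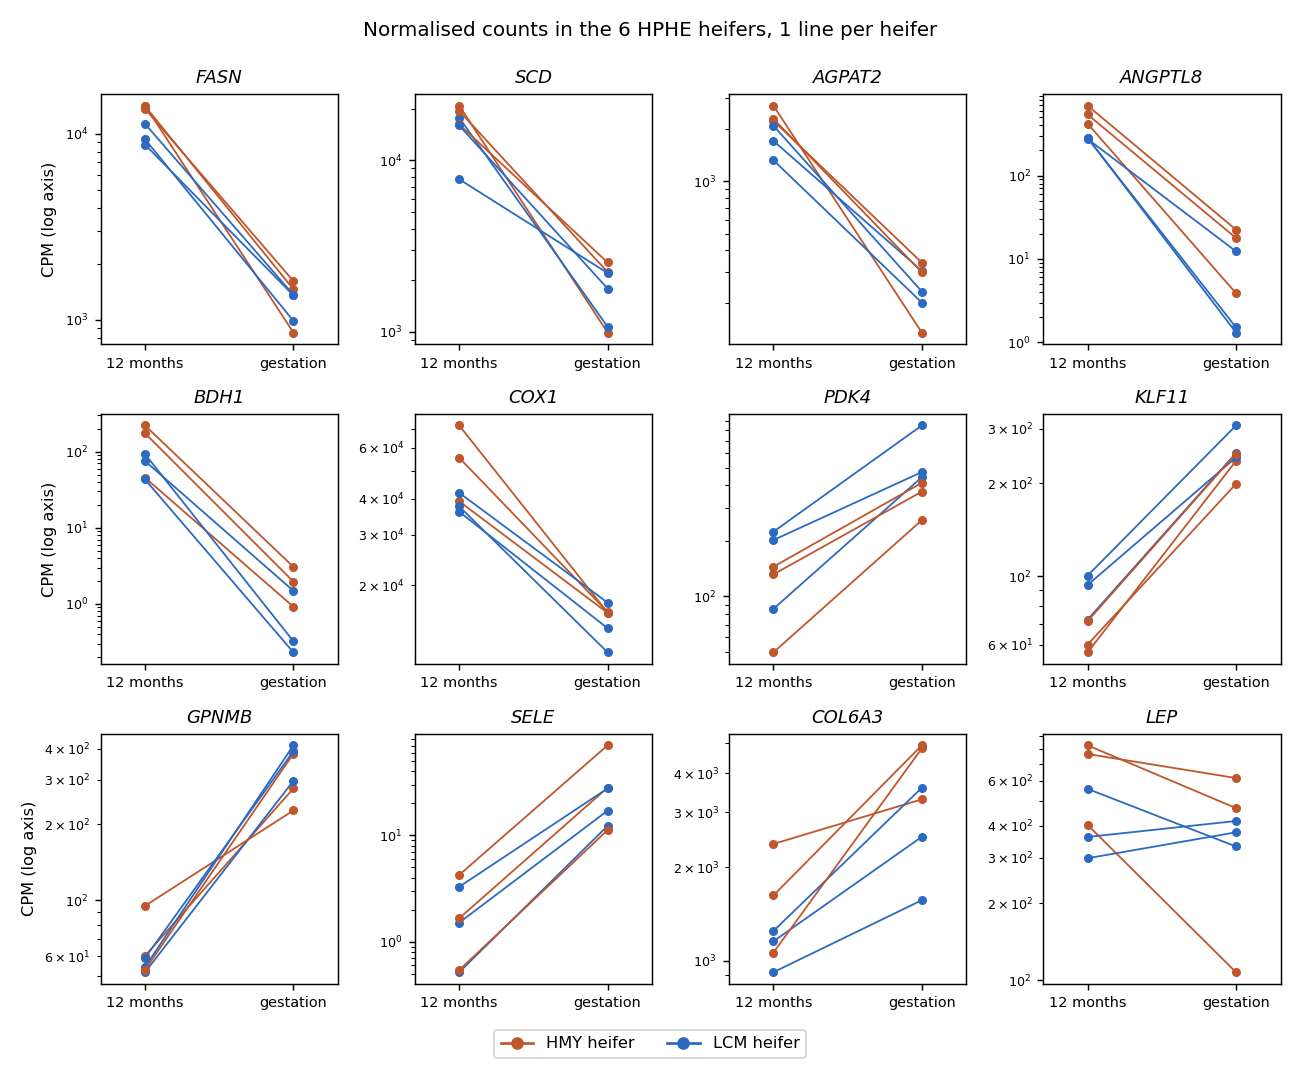
Normalised counts (CPM, log axis) of 12 genes at 12 months and in gestation in the 6 HPHE heifers; each line joins the samples of a heifer, and the colour gives its genetic group. The lines of FASN, SCD, AGPAT2, ANGPTL8, BDH1 and COX1 fall in 6 of 6 heifers, those of PDK4, KLF11, GPNMB, SELE and COL6A3 rise in 6 of 6, and those of LEP fall in 4 and rise in 2.

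Cholesterol synthesis followed, with 6 of 6 measured genes lower in gestation and a median log2 fold change of -1.55. IDI1 (ENSBTAG00000004075), which isomerises isopentenyl diphosphate, ranged from 84.6 to 289 CPM at 12 months and from 22.2 to 42.9 CPM in gestation (log2 fold change -2.65 ± 0.37). Lanosterol synthase LSS fell by 1.80 on the log2 scale, from a median of 194 to 52.2 CPM. NSDHL and SC5D, enzymes of the later steps from lanosterol to cholesterol, fell by 1.20 and 0.79 on the log2 scale. In none of these 4 genes did the values of the time points overlap, and heifer 15 had the lowest level of 12 months in each.

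Genes of the mitochondrial respiratory chain fell to a smaller extent and without an exception among those measured. All 55 nuclear identifiers of the list were lower in gestation, with log2 fold changes from -2.23 to -0.41 and a median of -1.06. The time points did not overlap in 55 of 55, against 12.2% of all genes tested. Only 53 of the 74 symbols of the list had an identifier, since the study listed these genes for differing between diets. It described genes of the chain as higher in LPHE, and 92.6% of the 242 genes higher in LPHE fell. Whether the full count of the list goes beyond that of other genes the study listed as higher in LPHE was not tested. UQCRFS1 (ENSBTAG00000046786), the iron-sulphur subunit of complex III, ranged from 126.5 to 241.5 CPM at 12 months and from 49.9 to 64.4 CPM in gestation (log2 fold change -1.68 ± 0.18, FDR 1.28e-06). UQCRB, also of complex III, fell by 1.37 on the log2 scale, from 75.7 to 131 CPM to 34.8 to 45.7 CPM. The complex I subunits NDUFA10 and NDUFB5 fell by 1.64 and 1.10 on the log2 scale. The strongest fall of the list was that of cytochrome c (CYCS), whose 2 identifiers had log2 fold changes of -2.23 and -1.71; near-identical copies of this gene can share reads. The smallest was that of the complex I subunit NDUFS5, with -0.41. The 3 measured genes of the mitochondrial genome were lower too. COX1 (ENSBTAG00000043561), the catalytic subunit of complex IV, ranged from 36010 to 71710 CPM at 12 months and from 11720 to 17430 CPM in gestation (log2 fold change -1.58 ± 0.16). COX2 fell by 1.55 and ND5 by 1.44 on the log2 scale, and the COX2 fall was greatest in heifer 19, from 12040 to 2282 CPM.

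The pathways that feed the chain changed in the same direction. Of 16 genes of the TCA cycle and pyruvate oxidation 15 fell (median log2 fold change -1.07), and 15 showed no overlap. MDH2, which oxidises malate, ranged from 221 to 411 CPM at 12 months and from 90.26 to 124.3 CPM in gestation (log2 fold change -1.48 ± 0.16). Succinate dehydrogenase subunit SDHA fell by 1.35, citrate synthase CS by 1.22 and the pyruvate dehydrogenase component PDHX by 0.98 on the log2 scale. Pyruvate carboxylase PC, which refills oxaloacetate, did not pass the test (log2 fold change -0.22, FDR 0.447). Of the genes of branched-chain amino acid breakdown 14 of 14 fell, with a median of -1.11. In the HMY heifers alone 14 fell (median -1.42) and in the LCM heifers alone 7 (median -0.80), with no test of a difference between these groups. The strongest test was that of BCKDHB, a subunit of the branched-chain keto acid dehydrogenase, with 21.1 to 31.5 CPM at 12 months and 7.66 to 9.17 CPM in gestation (log2 fold change -1.61 ± 0.18). MCEE and MMUT, which carry propionyl-CoA to succinyl-CoA, fell by 1.25 and 1.37, and the isovaleryl-CoA dehydrogenase IVD by 1.12 on the log2 scale. Of glycolysis 7 of 7 genes fell, with a median of -0.94, among them LDHB by 1.13, GPI by 0.94, ALDOA by 0.89 and PGK1 by 0.74 on the log2 scale.

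Fatty acid oxidation split. Of 10 genes 8 fell, with enzymes of the beta-oxidation spiral and of electron transfer among them. ECHS1, an enoyl-CoA hydratase, ranged from 641 to 1410 CPM at 12 months and from 224 to 307 CPM in gestation (log2 fold change -1.70 ± 0.19). The electron transfer flavoprotein subunit ETFA fell by 1.73, the peroxisomal enzyme EHHADH by 1.43 and the inner membrane transferase CPT2 by 1.27 on the log2 scale. The 2 genes that rose are regulatory. PDK4 (ENSBTAG00000014069), the kinase that switches pyruvate dehydrogenase off, ranged from 49.7 to 224 CPM at 12 months and from 259 to 846 CPM in gestation (log2 fold change 1.82 ± 0.32, FDR 0.000154). CPT1A, the transferase that commits fatty acids to mitochondrial entry, rose by 1.08 on the log2 scale (FDR 0.000235). Both were higher in gestation in 6 of 6 heifers without overlap.

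Of 16 antioxidant and glutathione genes 13 fell and 1 rose (median log2 fold change -1.06). GSTT3 (ENSBTAG00000008587), a theta-class glutathione transferase, ranged from 56.7 to 215 CPM at 12 months and from 3.21 to 31.4 CPM in gestation (log2 fold change -4.28 ± 0.53), and GSTT1 of the same class fell by 2.11 on the log2 scale. Reads shared by these related genes could not be told apart here. PRDX1, which reduces peroxides, ranged from 160 to 310 CPM at 12 months and from 104 to 141 CPM in gestation (log2 fold change -1.01 ± 0.11), and the quinone reductase NQO1 fell by 1.24. Catalase (CAT) and PRDX6 had log2 fold changes of 0.04 and -0.21 and did not pass the test (FDR 0.789 and 0.167). The gene that rose, CDO1, which makes cysteine sulphinate, had an FDR of 0.0467. The study listed CDO1 as lower in LPHE than in LPLE heifers. In the list 0 genes rose with RLE factors, with no filter, or without heifer 2, 6, 15, 19 or 23. Of 6 genes of NAD and one-carbon metabolism 4 fell, namely the threonine dehydrogenase TDH by 3.33, the NAD synthesis enzymes QPRT by 1.99 and NMNAT1 by 0.88, and the serine synthesis enzyme PSAT1 by 1.43 on the log2 scale. The asparagine synthetase ASNS fell by 0.77 and the unfolded protein response factor XBP1 rose by 0.45 on the log2 scale. Without heifer 2, heifer 6 or heifer 19 the FDR of XBP1 was 0.108, 0.0582 and 0.0862.

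**Figure D3:**
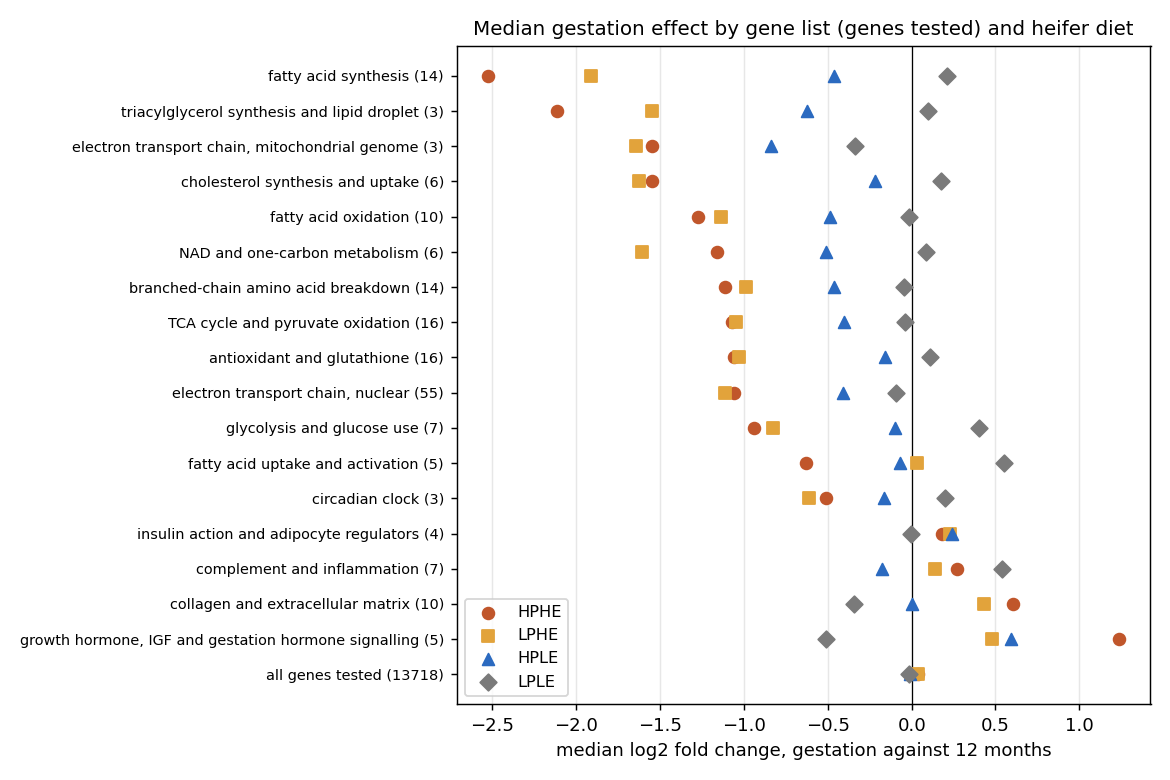
Median log2 fold change of gestation against 12 months for each gene list with at least 3 tested genes, markers left out (number of genes in brackets), with a symbol for each diet. The HPHE medians run from -2.52 for fatty acid synthesis to 1.24 for growth hormone, IGF and gestation hormone signalling, beside 0.04 over all genes tested.

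Among genes with a symbol, a mean of at least 5 CPM at either time and a fall in 6 of 6 heifers, the largest falls outside these lists were led by BDH1 (ENSBTAG00000000448), the mitochondrial enzyme that interconverts the ketone bodies acetoacetate and beta-hydroxybutyrate. BDH1 ranged from 43.1 to 221 CPM at 12 months and from 0.23 to 3.06 CPM in gestation (log2 fold change -6.41 ± 0.67, FDR 1.28e-06). It fell in 6 of 6 heifers, and the fewest reads behind a gestation value were 7. HPD, of tyrosine breakdown, fell by 5.02 on the log2 scale to 0.066 to 0.63 CPM, with 83 reads over the 6 gestation samples. SOST, an inhibitor of WNT signalling, ranged from 10.4 to 63.5 CPM at 12 months and from 0.20 to 9.27 CPM in gestation (log2 fold change -4.36 ± 0.66). MPV17L fell by 4.20, LY6E by 3.80, the channel gene PKD2L1 by 3.52, the lipid droplet protein gene PLIN5 by 3.49 and LOC518623 by 3.41 on the log2 scale. PLIN5 was low at both times, with at most 11.6 CPM at 12 months.

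Among genes with a symbol, a mean of at least 5 CPM at either time and a rise in 6 of 6 heifers, the largest rises were those of SELE, GPNMB, SUSD4, GPRC5A, MFI2, LYVE1, ADAMTS18, PDK4, A4GALT and SCIN. SELE (ENSBTAG00000007307), the adhesion molecule by which activated endothelium holds leukocytes, ranged from 0.52 to 4.25 CPM at 12 months and from 11.2 to 70.3 CPM in gestation (log2 fold change 3.86 ± 0.56, FDR 2.49e-05). GPNMB (ENSBTAG00000000604), a glycoprotein of lipid-laden macrophages and other cells, ranged from 51.8 to 95.0 CPM at 12 months and from 227 to 412 CPM in gestation (log2 fold change 2.42 ± 0.34). Both rose in 6 of 6 heifers without overlap. SUSD4 rose in 6 of 6 heifers, but from 0.89 to 18.7 CPM in gestation with values over 15 CPM in heifers 2, 15 and 19 and under 3 CPM in the others, and had an FDR of 0.0527 without heifer 19. MFI2 showed the same split, with 0.64 to 3.17 CPM in heifers 6, 11 and 23 and 7.64 to 9.91 CPM in the others. GPRC5A rose by 2.34, A4GALT by 1.80 and the actin-binding protein gene SCIN by 1.79 on the log2 scale. The matrix protease ADAMTS18 rose by 1.83 on the log2 scale (FDR 0.00127), from 1.56 to 4.64 CPM to 2.72 to 18.1 CPM.

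LYVE1, the hyaluronan receptor of lymphatic endothelium, ranged from 6.31 to 33.6 CPM at 12 months and from 31.7 to 89.0 CPM in gestation (log2 fold change 1.99 ± 0.39). CCL21, a chemokine of the same cells, rose by 2.59 on the log2 scale (FDR 0.0187) and in 5 of 6 heifers; without heifer 2, 6 or 19 its FDR was 0.0745, 0.0535 and 0.0691. The sum of LYVE1, FLT4 and CCL21, the 3 lymphatic markers of 6 with an identifier, was 19.5 to 48.5 CPM at 12 months and 66.6 to 244 CPM in gestation. FLT4 by itself did not pass the test (log2 fold change 0.87). The fibroblast and preadipocyte markers DCN and PI16, 2 of 11, summed to 2290 to 3416 CPM at 12 months and to 3384 to 6574 CPM in gestation. PI16 rose by 1.003 on the log2 scale in 5 of 6 heifers (FDR 0.0230), and had an FDR of 0.0795, 0.0584 and 0.0999 without heifer 11, 19 or 23. In bulk tissue fewer cells of a type and less RNA per cell cannot be told apart, and the part of these marker levels in the other changes was not tested. Markers of macrophages, T and B cells, neutrophils, blood endothelium, mammary cells and red cells carried no known identifier and were not analysed here.

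Of 10 collagen and matrix genes 3 rose, 1 fell and 6 did not pass the test. COL6A3, a chain of collagen VI, ranged from 921 to 2371 CPM at 12 months and from 1566 to 4909 CPM in gestation (log2 fold change 1.27 ± 0.23, FDR 0.000221) and was higher in 6 of 6 heifers. Decorin (DCN) rose by 0.83 and COL14A1 by 0.77 on the log2 scale. The cross-linking enzyme gene LOXL1 fell by 0.71 on the log2 scale (FDR 0.0374), and had FDR values of 0.151, 0.0959 and 0.0755 without heifer 2, 6 or 15 and of 0.0824 with library size in place of TMM. Without heifer 19 the FDR of COL14A1 was 0.0666. The complement inhibitor SERPING1 rose by 1.05 on the log2 scale, from 301 to 683 CPM to 604 to 1350 CPM, and with SELE and CCL21 it made up the 3 of 7 complement and inflammation genes that rose. The interferon-stimulated gene OAS1X had a log2 fold change of -0.13 (FDR 0.879), with 50.4 CPM in heifer 2 at 12 months and 8.04 to 13.5 CPM in the other 11 samples.

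Of 5 genes of growth hormone, IGF and gestation hormone signalling 4 rose and IGF2 did not pass the test. HSD11B1, which regenerates active glucocorticoid in the cell, ranged from 1.09 to 2.47 CPM at 12 months and from 2.46 to 5.42 CPM in gestation (log2 fold change 1.33 ± 0.26, FDR 0.000421). CISH, a feedback inhibitor induced by growth hormone and prolactin signals, ranged from 7.21 to 13.4 CPM at 12 months and from 10.6 to 65.5 CPM in gestation (log2 fold change 1.24 ± 0.37, FDR 0.0112). Its highest value was in heifer 23, without which the FDR was 0.0660. The prolactin receptor gene PRLR rose by 2.40 ± 0.93 on the log2 scale (FDR 0.0458) and in 5 of 6 heifers, but only heifers 2, 15 and 19 passed 5 CPM in gestation, and its FDR was 0.183, 0.150 and 0.188 without heifer 2, 15 and 19. IGFBP6, which binds IGF2, rose by 0.71 on the log2 scale (FDR 0.0459) and missed the threshold without heifer 2, 6, 15, 19 or 23 (FDR 0.0553 to 0.194).

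Among regulators and secreted products of the adipocyte, leptin did not pass the test. LEP (ENSBTAG00000014911) ranged from 299 to 825 CPM at 12 months and from 108 to 615 CPM in gestation (log2 fold change -0.53 ± 0.37, FDR 0.264). It was lower in 4 and higher in 2 of 6 heifers, and its lowest value was that of heifer 2 in gestation. S100B, a calcium-binding protein of adipocytes and glia, ranged from 327 to 498 CPM at 12 months and from 113 to 258 CPM in gestation (log2 fold change -1.22 ± 0.25, FDR 0.000665). The insulin receptor substrate IRS1 rose by 0.48 on the log2 scale (FDR 0.00714) and had an FDR of 0.0532 without heifer 6. ZBTB16, a transcription factor of adipocyte differentiation that responds to glucocorticoids, had a log2 fold change of 1.53 ± 0.54 (FDR 0.0286) but rose in 4 and fell in 2 of 6 heifers, and its FDR was 0.0920, 0.0657, 0.0997 and 0.135 without heifer 2, 6, 11 or 19. Neuronatin (NNAT), an imprinted membrane protein gene of adipocytes, ranged from 46.6 to 129 CPM at 12 months and from 61.2 to 168.1 CPM in gestation (log2 fold change -0.12, FDR 0.785, and 0.018 with library size in place of TMM). Of the circadian clock genes NFIL3 fell by 0.78 and BHLHE41 by 0.51 on the log2 scale (FDR 0.0270 and 0.0281). Without heifer 2 or 19 NFIL3 had an FDR of 0.113 in each case and BHLHE41 of 0.103 and 0.0755. Without heifer 11 NFIL3 had 0.0663, and without heifer 15 BHLHE41 had 0.0509. With library size in place of TMM neither passed (FDR 0.0566 for NFIL3 and 0.0765 for BHLHE41).

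The question whether the gestation effect of HPHE heifers differed from that of the other heifers was tested by the difference of the effects in the same model. Against LPHE, the diet with the same energy and less protein, the effects of 0 genes differed with an FDR under 0.05 (0% of 13718), with 300 genes at an unadjusted p under 0.05 and 0 by the likelihood ratio test and by DESeq2. LPHE heifers had 4667 DEG of their own (34%) between the time points, 2315 higher (16.9%) and 2352 lower (17.1%). Across genes the log2 fold changes of the diets had a Pearson r of 0.82 (13718 genes, which are not independent replicates, and no shared samples). Of the 5000 HPHE genes 4951 had the same sign in LPHE. The difference of the FASN effects was -0.80 ± 0.51 on the log2 scale and that of the COX1 effects 0.06 ± 0.22 (SE, unadjusted p 0.127 and 0.794). The gene with the smallest p, ENSBTAG00000021069, had an effect of 0.57 in HPHE and a difference of 0.96 ± 0.24 (FDR 1).

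HPLE is the diet with the same high-protein concentrate and a low-energy roughage. The study reports a lower crude protein intake in HPLE than in HPHE, so energy and protein intake cannot be told apart in this contrast. Against HPLE the effects of 131 genes differed (0.955%), with 114 more negative (0.831%) and 17 more positive (0.124%) in HPHE. Of the 114 genes 111 fell in HPHE, and of the 17 genes 15 rose. These counts are partly set by the choice, since the difference contains the HPHE effect. HPLE heifers had 312 DEG of their own (2.27%), 192 higher (1.4%) and 120 lower (0.875%). The count rested on single heifers and on the pairing. It was 0 without heifer 2, 32 without heifer 6, 8 without heifer 11, 454 without heifer 15, 2 without heifer 19, 0 without heifer 23 and 1 with the heifer left out of the model. Against the mean of the other 3 diets 157 genes differed (1.14%), 24 of them more positive (0.175%) and the others more negative (0.97%) in HPHE. The count was 3, 80, 6, 484, 5 and 3 without heifers 2, 6, 11, 15, 19 and 23. LPLE heifers had 143 DEG (1.04%), 96 higher (0.7%) and 47 lower (0.343%), and the Pearson r of the HPHE effects was 0.53 with those of HPLE and 0.23 with those of LPLE.

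The genes with the strongest tests of these differences were SOST, KLF11, BDH1, PRDX1, PDK4, FAM46B and an identifier without a symbol. SOST had a difference from HPLE of -5.44 ± 0.91 on the log2 scale (FDR 0.0196), with a mean of 31.9 ± 24.8 CPM at 12 months and 2.40 ± 3.49 CPM in gestation in HPHE and of 3.76 ± 4.00 and 6.95 ± 4.73 CPM in HPLE (SD, n = 6). KLF11 (ENSBTAG00000046218), a zinc finger transcription factor, had 75.8 ± 17.7 CPM at 12 months and 247.5 ± 34.95 CPM in gestation in HPHE (log2 fold change 1.73 ± 0.22, FDR 5.55e-06). In HPLE it had 116 ± 19.3 and 113 ± 33.3 CPM, a difference of effects of 1.79 ± 0.30 (FDR 0.0196). The study listed SOST and KLF11, like ANGPTL8, NNAT, SELE and QPRT, for a difference between HPHE and HPLE at 12 months, so their values here are a description. PDK4 had 140 ± 66.6 and 467 ± 200 CPM in HPHE and 229 ± 81.8 and 159 ± 64.4 CPM in HPLE (difference 2.39 ± 0.44, FDR 0.0265). PRDX1 differed by -0.86 ± 0.16 (FDR 0.0265). BDH1 differed from the mean of the other diets by -4.36 ± 0.69 (FDR 0.00773), and FAM46B, which fell by 0.82 in HPHE, by -1.21 ± 0.21 (FDR 0.0178). ENSBTAG00000005504 fell by 2.12 ± 0.20 in HPHE, from 6.19 to 9.14 CPM to 1.25 to 2.71 CPM, and differed by -1.54 ± 0.22 (FDR 0.00547). The mean of the other diets includes LPHE, where BDH1 fell by 4.32 and SOST by 3.33 on the log2 scale and PDK4 rose by 0.95. KLF11 had 70.6 ± 13.85 and 174 ± 84.3 CPM in LPHE (SD, n = 6). No effect differed between HPHE and LPHE past the threshold.

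Fatty acid synthesis was the list with the most such differences, 9 of 14 against HPLE. Of the 1007 tested genes with a symbol, from which the lists are drawn, 91 differed from HPLE. FASN had 11840 ± 2430 CPM at 12 months and 1270 ± 290 CPM in gestation in HPHE, 9166 ± 4494 and 4577 ± 2433 CPM in HPLE, 11550 ± 1231 and 2908 ± 2316 CPM in LPHE, and 6916 ± 2376 and 6767 ± 3277 CPM in LPLE (SD, n = 6). The HPHE mean was the highest of the diets at 12 months and the lowest in gestation, with a range that overlapped that of LPHE at both times. In gestation the HPHE range did not overlap those of HPLE and LPLE. ANGPTL8 had 415 ± 171 and 9.89 ± 9.02 CPM in HPHE, and 146 ± 169 and 89.6 ± 72.8 CPM in HPLE (difference of effects -5.29 ± 1.02, FDR 0.0265). In LPHE it had 334.8 ± 122.2 and 42.53 ± 48.33 CPM. The nuclear respiratory chain list differed in 6 of 55 genes against HPLE, a share near that of genes with a symbol. Its median log2 fold change in HPLE was -0.41, and COX1 did not pass (difference -0.70 ± 0.22, FDR 0.0958). NNAT had a difference of 1.94 ± 0.43 (FDR 0.0390) with no change of its own in HPHE past the threshold; in HPLE it went from 333 ± 122 to 81.6 ± 31.1 CPM. The LEP difference of -1.80 ± 0.54 missed the threshold (FDR 0.0784).

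**Figure D4:**
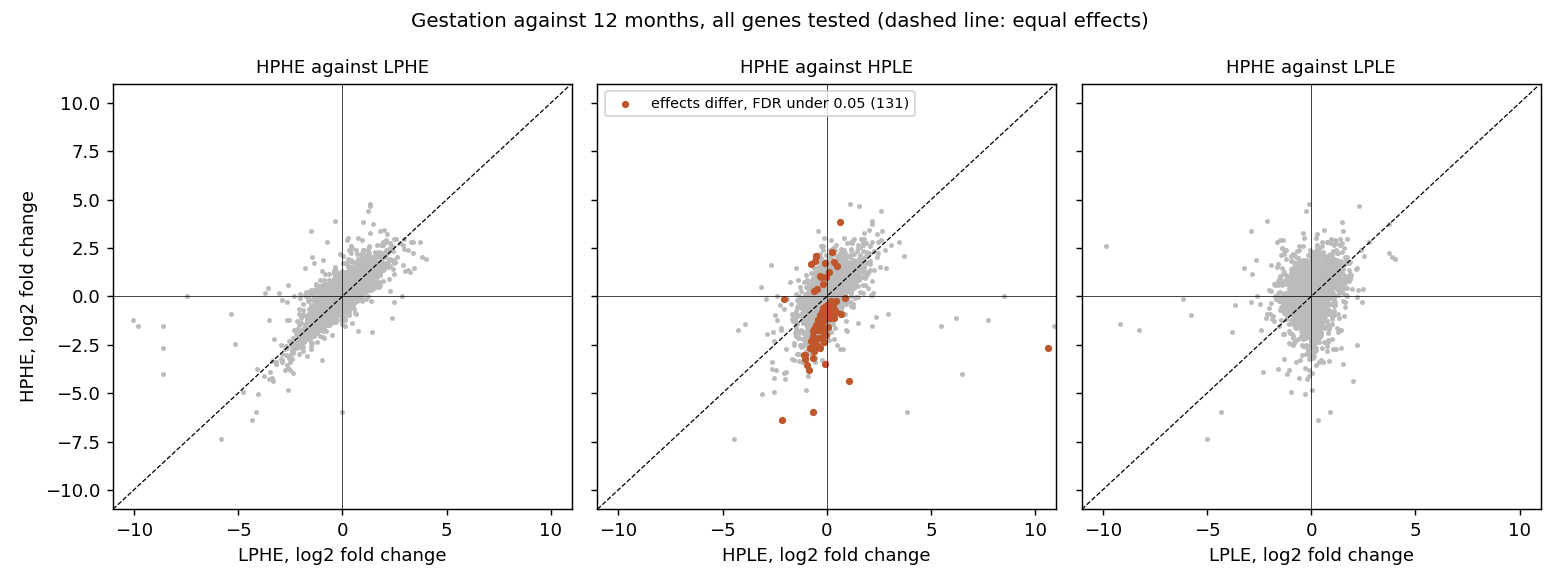
Log2 fold change of gestation against 12 months in HPHE heifers (vertical axis) against that in LPHE, HPLE and LPLE heifers (horizontal axes), 1 point per gene tested, with a dashed line of equal effects. The points follow the line for LPHE (r 0.82), less so for HPLE (r 0.53) and LPLE (r 0.23), and the 131 coloured genes differed between HPHE and HPLE.

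The gestation effect in HPHE was also set against the energy effect at 12 months in the low-protein heifers, which shares no sample with it. In the 12 low-protein samples of 12 months 242 genes were higher and 83 lower in LPHE than in LPLE at an FDR under 0.1. Of the 242 genes 224 fell in HPHE gestation (92.6%) and 0 rose, with a median log2 fold change of -1.05, against 17.7% and 0.04 over all genes. Of the 83 genes 59 rose (71.1%) and 0 fell, with a median of 0.62. The median of the 242 genes in gestation was -0.28 in HPLE heifers, which share no sample with this choice of genes either. Across all genes tested Pearson's r was -0.49 and Spearman's rho -0.64.

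**Figure D5:**
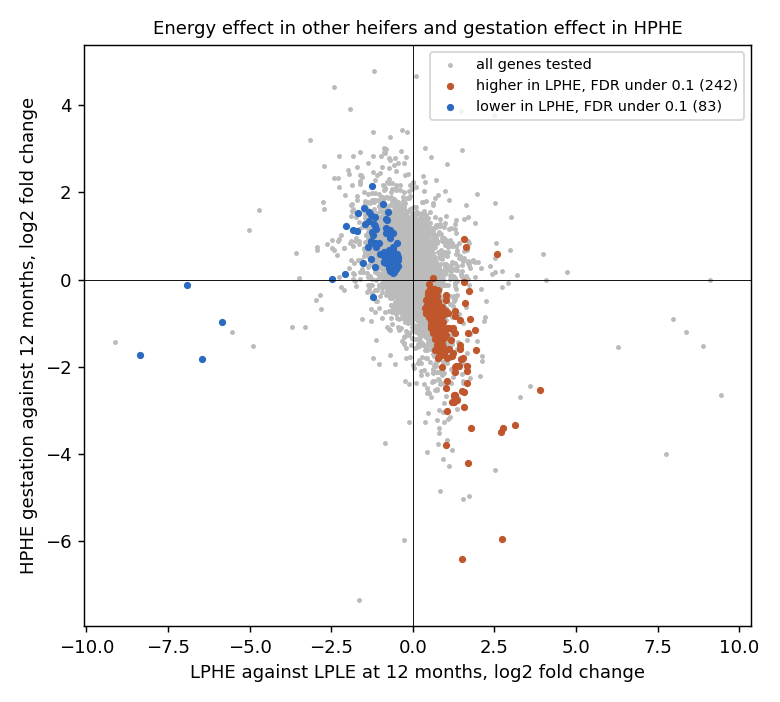
Log2 fold change of HPHE gestation against 12 months (vertical axis) against that of LPHE over LPLE heifers at 12 months (horizontal axis), 1 point per gene tested, with the genes past an FDR of 0.1 coloured. Of the 242 genes higher in LPHE 224 fell in HPHE gestation, and of the 83 lower ones 59 rose.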

How the data were processed

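Paired-end poly(A) RNA-seq libraries of 48 adipose biopsies were used. The authors trimmed reads with cutadapt (1.3), aligned them to UMD3.1 with TopHat2 (2.0.12), used SAMtools (1.19) and made the gene counts (Ensembl identifiers) by HTSeq, per the labels and methods; the deposited values are raw counts without normalization, 1 file per sample. The 5 summary rows were dropped, and 45.1% to 59.6% of each HPHE library lay on genes. Symbols came from the study's gene tables, since the reference table at hand held no Ensembl identifiers; coordinates and sequences were not used here.

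Of 24616 genes, 13718 that reached 2 CPM in 3 or more of the 48 samples were tested in edgeR (4.0.16, R 4.3.3) by the robust quasi-likelihood F test, with TMM, a heifer block and a gestation effect per diet; the spread was shared by all diets. SE is the log2 fold change over the square root of F, and adjustment was Benjamini-Hochberg over all genes. CPM are TMM-normalized. By the heifer numbers in the labels, pairs come from the same animals. Deviations from the time point means correlated within heifers at r = 0.12 to 0.43, over 0.1 in 6 of 6 pairs. The own pair had the highest r in 4 of 6 heifers. In heifer 15 the own r was 0.148, against 0.369 with another heifer, and in heifer 19 it was 0.123 against 0.141. For heifers 15 and 19 the pairing therefore rests on the labels. Samples of a group differed by more than counting error (chi-square over its degrees of freedom at least 38.3 in 30 pairs). The code was tested on simulated data. The 6 pairs per diet limit the precision.

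Named genes were the 10 largest rises and 10 largest falls among DEG with a symbol, at least 5 CPM at either time and one direction in 6 of 6 heifers; up to 4 DEG per list with the smallest p; a fixed set of names; and up to 5 genes per difference between diets. CPT1A, CDO1, CAT, PRDX6, PC, FADS2, IGF2, CYCS and NDUFS5 were added after values were seen. A gene that the rule names is not reported here. Members and lists were chosen with earlier results of these data known. Alternatives were no heifer block, the likelihood ratio test, no robust shrinkage, DESeq2 (1.42.0), library size or RLE scaling, 2 other filters, an FDR of 0.1, the 12 HPHE samples alone, each heifer left out and, added after seeing the data, each genetic group alone.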

Additional observations from a re-analysis of the deposited data

Results flagged for a closer look

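Of 121 groups of 6 values checked for a value far from the others, 10 held one, where chance alone gives about 1 in 20. Among the log2 differences within a heifer (pseudocount 0.5 CPM), heifer 2 stood apart for AGPAT2 with -4.323 (others -3.161 to -2.476) and for OAS1X with -1.86 (others -0.1149 to 0.5725). Heifer 15 stood apart for NSDHL with -0.7105 (others -1.34 to -1.121) and heifer 19 for COX2 with -2.399 (others -1.55 to -1.12). Among the summed marker levels, the adipocyte sum of heifer 2 in gestation was 982.2 CPM (others 1781 to 2156), the smooth muscle sum of heifer 15 at 12 months 3473 CPM (others 105.6 to 358.7), and the skeletal muscle sum 158.2 CPM in heifer 11 at 12 months (others 10.54 to 59.98) and 358 CPM in heifer 19 in gestation (others 5.127 to 30.94). The gestation library of heifer 23 had 20.82% of reads on no feature (others 24.81 to 26.8%) and 33.1% of reads without a unique alignment (others 14.84 to 17.14%). The part of these libraries in the results was not tested beyond leaving each heifer out.

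The gestation effect differed between HPHE and HPLE heifers for 30 of 93 genes of the naming rule, at an edgeR FDR under 0.05 for the difference itself. Over all genes tested 0.955% differed, and among the 1007 with a symbol 91 did. Some of the 93 were named for the smallest p of such a difference and others for a large HPHE effect. The count of 30 is therefore partly set by the choice of genes. All values are the HPHE effect minus the HPLE effect on the log2 scale. In lipid synthesis the differences were -2.171 for FASN, -2.354 for ACACA, -2.565 for SCD, -2.207 for ACSS2, -1.966 for SLC25A1, -1.969 for AGPAT2, -2.075 for IDI1 and -1.65 for LSS. In mitochondrial and sugar metabolism they were -0.975 for MDH2, -0.6647 for PDHX, -0.8154 for CS, -1.044 for UQCRFS1, -1.093 for NDUFA10, -0.816 for GPI and -1.056 for ALDOA. In redox and NAD metabolism they were -0.8593 for PRDX1, -1.084 for NQO1 and -1.843 for QPRT. Among the largest falls they were -4.286 for BDH1, -5.288 for ANGPTL8, -5.441 for SOST, -2.573 for PKD2L1 and -3.391 for PLIN5. The differences of ENSBTAG00000005504 and FAM46B were -1.738 and -1.253. The positive differences were 3.23 for SELE, 2.391 for PDK4, 1.939 for NNAT, 1.791 for KLF11 and 1.462 for SCIN. For SELE, NNAT, KLF11, ANGPTL8, SOST and QPRT these values are a description, since the study listed them for a difference between HPHE and HPLE at 12 months. Without heifer 2 or heifer 23, 0 genes of the whole table passed this test.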

How the results depend on the processing

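The 5000 DEG of HPHE gestation numbered 3522 to 5081 with a heifer left out (1642 to 2670 higher, 1880 to 2411 lower), 3200 in the HMY heifers alone (1357 higher) and 1106 in the LCM heifers alone (417 higher, 689 lower), where 3 heifers remain. Library size in place of TMM gave 4267 higher and 1615 lower DEG. Without the replicate block 3830 genes passed, of which 3771 were among the 5000. The 157 genes that differed from the mean of the other diets became 887 at an FDR of 0.1, 42 without the replicate block, 609 by the likelihood ratio test, 962 by DESeq2, 262 with RLE factors, 3 to 484 with a heifer left out, 1 in the HMY and 0 in the LCM heifers. The 131 genes that differed from HPLE became 710 at an FDR of 0.1, 1 without the replicate block, 489 by the likelihood ratio test, 837 by DESeq2, 38 with library size, 206 with RLE factors, 0 to 454 with a heifer left out, 1 in the HMY and 0 in the LCM heifers. The cause was not tested. The difference from LPHE had 0 genes in every setting tried. Of the 94 genes of the naming rule, 2 changed sign, neither past the threshold: OAS1X to 0.0083 with library size, -0.32 to 0.21 with a heifer left out (above 0 without heifer 2) and 0.22 in the LCM heifers, and NNAT to 0.018 with library size. Without the replicate block 2 of these 94 genes lost their call, IGFBP6 among them (FDR 0.0523). The list counts of fatty acid synthesis, cholesterol synthesis, the TCA cycle, the nuclear respiratory chain and branched-chain amino acid breakdown were the same without each heifer in turn, but in the LCM heifers alone 11, 6, 15, 51 and 7 genes fell. Genes with few reads, such as HPD and PRLR, are limited by depth as well.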

Other observations

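Gene families outside the lists were grouped by symbol after their values had been seen, and are given as a description. Of 10 proteasome subunits 10 fell in HPHE gestation, with a median log2 fold change of -0.61 and a range from -1.07 (PSMD14) to -0.48 (PSMB2). Of 8 mitochondrial ribosomal proteins 8 fell (median -0.66, lowest MRPS36 with -1.17), and of 5 components of mitochondrial protein import 5 fell (median -0.90, lowest TOMM5 with -1.30). The 4 complex I assembly factors and the 3 coenzyme Q synthesis genes fell as well, with medians of -1.06 and -0.77. Of 10 mitochondrial carriers of the SLC25 family 8 fell and 0 rose (median -1.12). These shares are read against the 54.4% of genes with a symbol that fell, and against 92.6% of the 242 genes higher in LPHE at 12 months. The families were not split by the direction in which the study listed their genes. In HPLE heifers the proteasome, mitochondrial ribosome and import medians were -0.14, -0.17 and -0.17, with no test of the difference.

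Of 6 matrix proteases and related proteins of the ADAMTS family 3 rose and 3 did not pass the test, against 22.7% of genes with a symbol that rose. Their log2 fold changes had a median of 0.50, from 0.00015 in ADAMTS1 to 1.83 in ADAMTS18. Across the 5000 HPHE DEG, 4301 had the same sign in HPLE heifers (86.02%) and 2948 in LPLE heifers (58.96%).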
